A study of Mus musculus with 51 samples.

Results

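The samples described here are 5 cloned mouse morulae and 5 cloned mouse blastocysts, which are 10 of the 51 single oocytes and embryos of a preimplantation series. They were chosen by their labels alone, and every gene with a probe set that carries exactly 1 gene symbol was compared, 18194 genes in all. Clones were made by transfer of a Sertoli cell nucleus of the B6CBF1 strain into an oocyte of the B6D2F1 strain. Sertoli cells are the somatic support cells of the testis, so the donor nuclei were male. Morulae were collected 72 hours and blastocysts 84 hours after activation, from culture in KSOM medium. The embryos compared with them were 3 morulae and 3 blastocysts from in vitro fertilisation (IVF) of B6D2F1 by B6D2F1 at the same hours. Clones and IVF embryos thus differ in the strain of the nucleus as well as in its origin, and these cannot be told apart. They also differ in sex, since 1 IVF morula and 1 IVF blastocyst lacked the signal of a Y-linked gene that all 10 clones had. Each array measured 1 whole embryo after 2 rounds of amplification, so more cells of a type and more RNA per cell cannot be told apart either.

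All values are log2 levels relative to a baseline of the gene's own probe set, so a value of 0 is not an absence and levels cannot be compared between genes. A difference of 1 on this scale is 2-fold. Differences are cloned blastocysts minus cloned morulae, given ± SE, and a gene is called higher or lower where its limma p, adjusted over all genes by the Benjamini-Hochberg method, is under 0.05. SE and p rest on a spread shared over all 30 clone arrays of 6 stages, not on morulae and blastocysts alone.

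Between the morula and the blastocyst the mouse embryo forms its earliest tissues. Outer cells become trophectoderm, an epithelium that seals with tight junctions and pumps fluid into a cavity, and inner cells become the inner cell mass, which then divides into epiblast and primitive endoderm. TEAD4 and its coactivator YAP1, which Hippo signalling holds out of the nucleus in inner cells, switch on Cdx2 and Gata3 in outer cells, while Pou5f1, Nanog and Sox2 mark pluripotent cells and Gata6, Gata4 and Sox17 the primitive endoderm.

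In cloned embryos this step was dominated by large rises. By at least 2-fold, 2662 genes were higher (14.6% of all genes) and 872 were lower in blastocysts (4.79%). Without a fold threshold 3077 were higher (16.9%) and 3203 lower (17.6%), since 2331 of the falls were under 2-fold with a median size of 0.142, while 415 rises were under 2-fold. The number of small falls changed with scaling. After centring arrays on their medians 3118 genes were higher and 1521 lower, and after quantile normalization 2125 and 2083, of which 1903 and 1522 by at least 2-fold. Quantile normalization was applied to these baseline-relative values, so it ranks genes by the distance from their own baseline. All 5 blastocysts lay above all 5 morulae in 2653 genes (14.6%) and below them in 7174 (39.4%).

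The labels were checked against the array. Y-linked Eif2s3y lay between 0.81 and 2.47 in all 10 clones, against -5.49 in IVF morula 2 and -5.52 in IVF blastocyst 1, where Xist was the highest of each IVF group (1.89 and 3.43). The other 4 IVF embryos lay between 1.07 and 2.24. Among defining markers of other cells, 0 of 7 Sertoli genes were higher in blastocysts and 3 were lower, with mean levels from 0.373 to 1.07 in morulae and from -0.208 to 0.0277 in blastocysts. Of 5 markers of other testis cells, 4 of cumulus cells, 6 of sperm and germ cells and 6 of the oocyte, 0 were higher and 0, 2, 4 and 2 were lower. In longer lists 5 of 24 Sertoli and 2 of 15 cumulus genes were higher, and 5 and 2 were lower. Of 16 genes of other testis cells and 17 of sperm and germ cells 0 were higher and 4 and 6 lower. Of 27 maternal oocyte factors 1 was higher and 7 lower. Of all genes 16.9% were higher and 17.6% lower. Array controls moved with stage. The mean of the bacterial hybridisation controls lay between -0.10 and 0.98 in morulae and between -1.25 and -1.07 in blastocysts, a difference of -1.62 (exact two-sided permutation test, p = 0.00794, adjusted over 4 measures 0.0159), and the 3′ minus 5′ signal of Actb differed by -1.37 (same test, p = 0.00794, adjusted 0.0159). With the hybridisation controls as a covariate 1202 genes were higher and 760 lower. In the 10 arrays alone they separate the stages without overlap, and with the covariate 225 genes were higher and 160 lower there, of which 193 and 83 were among the calls without it over all clone stages. The part of these controls in any result below was not tested further.

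The largest rises were found in Slc15a2, which encodes an oligopeptide transporter (chromosome 16, 36750161 to 36785158, GRCm38.p6). Cloned morulae 1 to 5 stood at 2.98, -0.02, 0.11, 0.15 and 0.81 and blastocysts 1 to 5 at 11.16, 9.13, 11.70, 11.03 and 11.78. The groups were far apart, and the difference was 10.15 ± 0.44 (adjusted p = 1.51e-15). Lgals1, the gene of the sugar-binding protein galectin-1 (chromosome 15, 78926725 to 78930465), went from between -0.07 and 1.51 to between 10.22 and 10.85, a rise of 9.91 ± 0.58. Lcp1, which encodes the actin-bundling protein plastin, rose by 9.23 ± 0.60, although the morula of replicate 4 stood at 1.19 and the other 4 at or below -2.05. Other genes of the 15 largest rises encode surface and adhesion proteins: the serine protease gene Tmprss2 (7.62 ± 0.39), the desmosomal cadherin gene Dsc2 (7.25 ± 0.45) and the focal adhesion gene Zyx (6.51 ± 0.41). Also among them were the retinol-oxidising enzyme gene Adh1 (7.64 ± 0.52), the lysosomal membrane gene Laptm5 (7.21 ± 0.60), the annexin gene Anxa6 (6.96 ± 0.11), Dmkn (6.83 ± 0.52), the engulfment adaptor gene Gulp1 (6.65 ± 0.36) and the ubiquitin ligase gene Nedd4 (6.45 ± 0.59). With the other probe set of the gene, Laptm5 stood at -0.10 (adjusted p = 0.864) and Zyx at 0.44 (adjusted p = 0.428).

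The deepest falls began with Nppb, the gene of brain natriuretic peptide (chromosome 4, 147985786 to 147987205). It stood at 8.17, 9.77, 8.14, 5.11 and 10.32 in morulae 1 to 5 and at 1.09, 0.83, -0.05, 0.55 and 1.34 in blastocysts, a fall of -7.55 ± 0.73 (adjusted p = 9.69e-09). In clones it was near its baseline up to the 4-cell stage, with group means between -0.01 and 0.00, and averaged 1.46 at the 8-cell stage, so its high level was that of the morula. Stmn3, which encodes a microtubule-destabilising stathmin (chromosome 2, 181306459 to 181314500), fell by 6.76 ± 0.41, from between -0.58 and 0.36 to between -8.51 and -6.19. The oocyte-type homeobox gene Obox6 fell by 5.81 ± 0.38 and averaged 2.50 at the 4-cell stage, -1.73 in morulae and -7.54 in blastocysts. The same direction held for Hsd17b14 (-6.60 ± 0.33), Tmigd1 (-6.46 ± 0.39), Bex6 (-5.65 ± 0.42), the homeobox gene Cux2 (-5.50 ± 0.52), Tlcd4 (-5.46 ± 0.71) and the p53-responsive kinase gene Plk2 (-5.38 ± 1.13). Allc (-5.36 ± 0.68), X-linked Bex1 (-5.30 ± 0.97), the methyltransferase gene Bhmt2 (-5.28 ± 0.61) and Tent5c (-5.25 ± 0.65) also fell. Mid1 and Plau, which fell too, are described with the IVF embryos below. Plk2 did not pass with the hybridisation controls as a covariate (-4.44, adjusted p = 0.155), nor with its other probe set (-0.03, adjusted p = 0.0515).

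**Figure D1:**
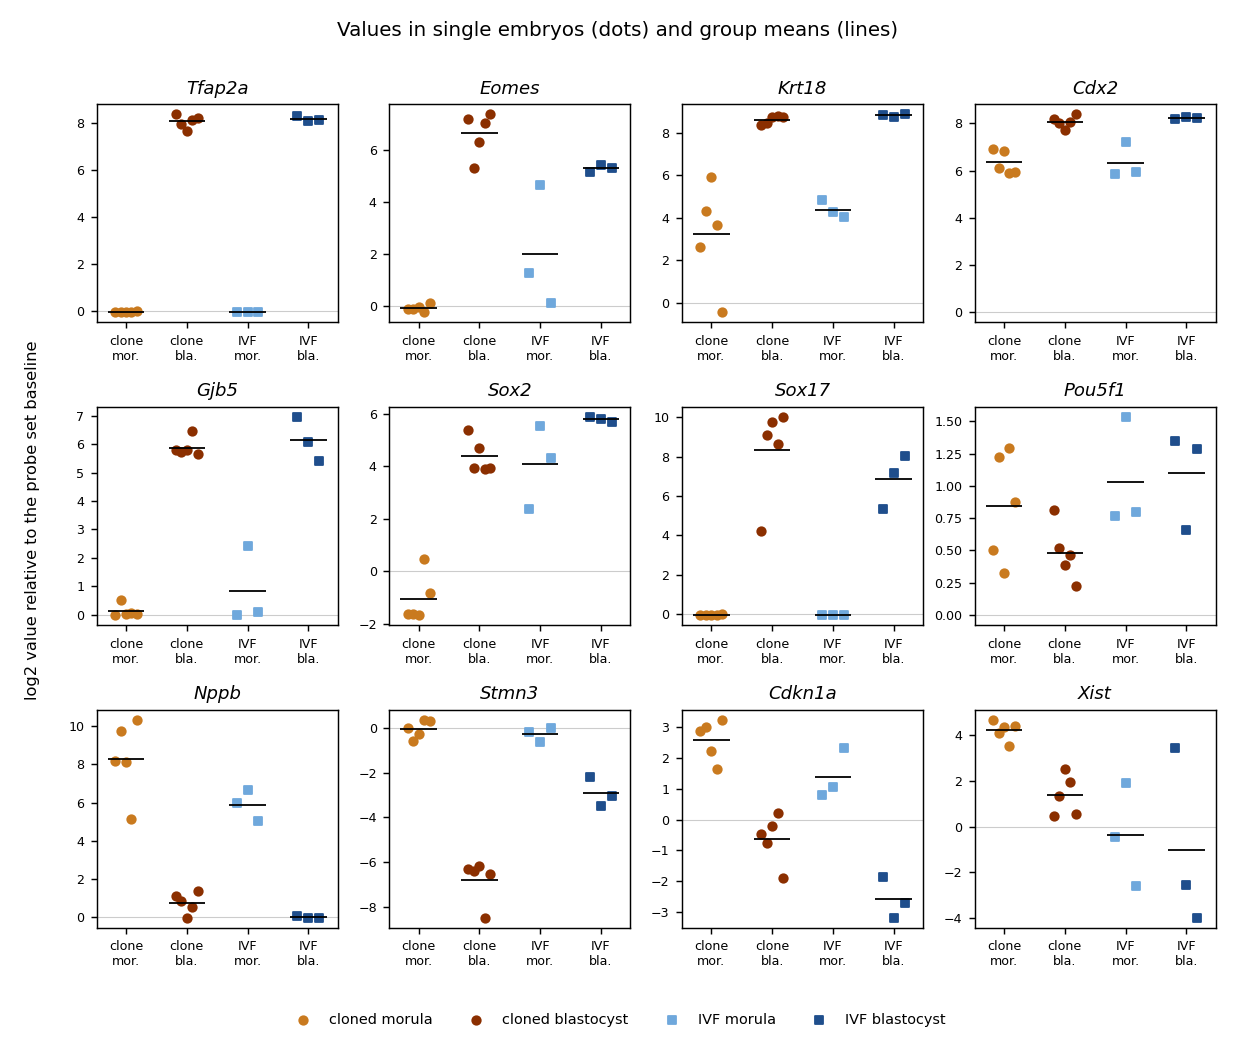
Log2 values of 12 genes in single embryos, relative to the baseline of each probe set (vertical axis), for cloned morulae and blastocysts (circles, 5 each) and IVF morulae and blastocysts (squares, 3 each), with lines at group means. Tfap2a and Sox17 stood at the baseline in morulae, Krt18 varied most among cloned morulae, and Pou5f1 overlapped between stages. The rise of Cdx2 by 1.73 stood at -0.19 after quantile normalization.

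Each gene was also placed along the earlier stages. Of the 2662 genes higher by at least 2-fold, 1608 (60.4%) had their highest mean in blastocysts among the oocyte and the 6 clone stages, and 601 (22.6%) had it in the MII oocyte. The median level over these genes was between -0.23 and 0.02 from the 1-cell stage to the morula and 1.77 in blastocysts. Of the 872 falls of that size, 314 (36%) were highest in morulae, with medians of -1.05 in oocytes, 0.78 in morulae and -0.86 in blastocysts. Blastocyst and morula values chose these genes, so the medians of both stages and the shares highest at each stage are a description. By that choice a rise cannot be highest in morulae, nor a fall in blastocysts. The shares over all genes were not computed.

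Trophectoderm transcription factors were among the lists with most rises. Of 24 measured members 13 were higher and 2 lower, with a median of 1.29 against -0.07 over all genes. Tfap2a, which encodes an AP-2 factor (chromosome 13, 40713802 to 40738238), lay between -0.03 and 0.00 in all 5 morulae and at 8.38, 7.98, 7.67, 8.13 and 8.23 in blastocysts, a rise of 8.09 ± 0.28 (adjusted p = 1.13e-17). Its IVF rise was as steep, 8.19, from -0.01 to between 8.09 and 8.32. Eomes, a T-box factor of trophoblast progenitors (chromosome 9, 118478186 to 118486132), went from between -0.25 and 0.11 to 7.20, 5.32, 6.33, 7.03 and 7.38, a rise of 6.75 ± 0.22. The groups did not overlap in either gene. Gata2 (4.71 ± 0.20), Elf5 (4.57 ± 0.40), the transcriptional inhibitor gene Id2 (5.44 ± 0.80, named after its values had been seen), the grainyhead factor gene Grhl1 (4.63 ± 0.58) and Klf5 (2.31 ± 0.30) rose as well.

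Cdx2 and Gata3, early regulators of trophectoderm, had smaller differences. Cdx2 (chromosome 5, 147300900 to 147307249) was already at 6.92, 6.13, 6.82, 5.90 and 5.95 in morulae. It reached 8.20, 8.01, 7.74, 8.06 and 8.39 in blastocysts, without overlap, higher by 1.73 ± 0.32 (adjusted p = 0.000168). Gata3 was higher by 1.30 ± 0.35, but after quantile normalization the differences of Cdx2 and Gata3 stood at -0.19 and -0.08. That setting ranks genes by the distance from their own baseline, and Cdx2 stood far above its baseline at both stages. Tead4 did not pass (0.34 ± 0.32, adjusted p = 0.447) and its groups overlapped. Tfap2c fell by 1.75 ± 0.48, from between 0.02 and 0.36 to between -1.86 and -1.13, without overlap. After quantile normalization 9 of the 24 were higher and 1 lower, with a median of 0.15, and with the hybridisation controls as a covariate 12 and 0. Tfap2c did not pass with those controls (adjusted p = 0.0762), and with the other probe sets Tfap2c (-0.34), Elf5 (0.19) and Klf5 (0.58) did not pass.

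Most called epithelial genes were higher in blastocysts. Of 32 genes of keratins and epithelial differentiation 17 were higher and 1 lower (median 1.26), and of 29 genes of tight and adherens junctions and polarity 17 were higher and 1 lower (median 1.28). Krt18, 1 member of the keratin pair of simple epithelia (chromosome 15, 102028216 to 102032026), stood at 2.62, 4.32, 5.89, 3.66 and -0.44 in morulae 1 to 5 and between 8.34 and 8.79 in blastocysts, a rise of 5.40 ± 0.77 (adjusted p = 6.11e-06). Its partner Krt8 followed the same order of embryos, at 3.63, 4.61, 6.21, 4.14 and 0.46 and then between 8.26 and 8.45 (4.56 ± 1.12, adjusted p = 0.00296). For both keratins the morula of replicate 5 was lowest and that of replicate 3 highest, while the 5 blastocysts lay close together. Krt7 rose by 2.06 ± 0.26, with 1 blastocyst at 0.27 and the other 4 at 2.30 or more. Claudin 3 (Cldn3), a tight junction protein gene, was between -0.01 and 0.00 in morulae and rose by 5.75 ± 0.20. The scaffold genes Patj (4.58 ± 0.39) and Tjp3 (3.95 ± 0.37) rose, E-cadherin (Cdh1) did not pass (0.48 ± 0.49, adjusted p = 0.483), and the polarity gene Crb3 fell by 1.24 ± 0.17. After quantile normalization 8 of 32 and 12 of 29 were higher, with medians of 0.22 and 0.64, and Krt8 did not pass (2.59, adjusted p = 0.155). With the hybridisation controls as a covariate 6 and 5 were higher, with medians of 1.24 and 0.77, and Krt8 stood at 4.57 (adjusted p = 0.143).

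Genes of cavitation, which move sodium and water across the trophectoderm, gave fewer calls. Of 23 measured 6 were higher (26.1%, against 16.9% of all genes) and 2 lower (8.7%, against 17.6%), with a median of 0.01. Aqp8, a water channel gene, was between -0.03 and 0.02 in morulae and at -0.06, 2.26, 4.66, 3.98 and 5.40 in blastocysts 1 to 5, a rise of 3.26 ± 0.56 in which blastocyst 1 did not rise above the morulae. Among regulators of the sodium pump, Fxyd4 rose by 3.24 ± 0.25 and Fxyd6 by 2.22 ± 0.38. The exchanger gene Slc4a2 (2.83 ± 0.37) and the scaffold gene Slc9a3r1 (3.91 ± 0.78) rose. The pump subunit gene Atp1b1 was at 1.14, 1.09, 2.64, 1.12 and 0.83 and then between 2.96 and 3.28, without overlap, yet did not pass in the fit of all clone stages (1.76 ± 1.10, adjusted p = 0.227); it passed in the 10 arrays alone (adjusted p = 0.00254) and with its other probe set (3.89, adjusted p = 1.85e-05). Aqp3 fell by 1.88 ± 0.53, from between 1.87 and 3.02 to between 0.00 and 0.82. With the hybridisation controls as a covariate neither Aqp3 (adjusted p = 0.476) nor Slc9a3r1 (adjusted p = 0.101) passed.

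Of 35 effector and secreted genes of trophectoderm 15 were higher and 2 lower (median 0.78). The gap junction gene Gjb5 (chromosome 4, 127354809 to 127358164) went from between 0.00 and 0.50 to 5.80, 5.72, 5.81, 6.46 and 5.65, a rise of 5.77 ± 0.14 (adjusted p = 2.28e-21). Wnt7b, which encodes a Wnt ligand, rose by 4.34 ± 0.30, the fatty acid carrier gene Fabp3 by 4.46 ± 0.41, the membrane protease gene Prss8 by 5.25 ± 0.45 and Tinagl1 by 3.11 ± 0.33. In all 5 the groups did not overlap. After quantile normalization 9 of the 35 were higher and 3 lower, with a median of 0.16.

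**Figure D2:**
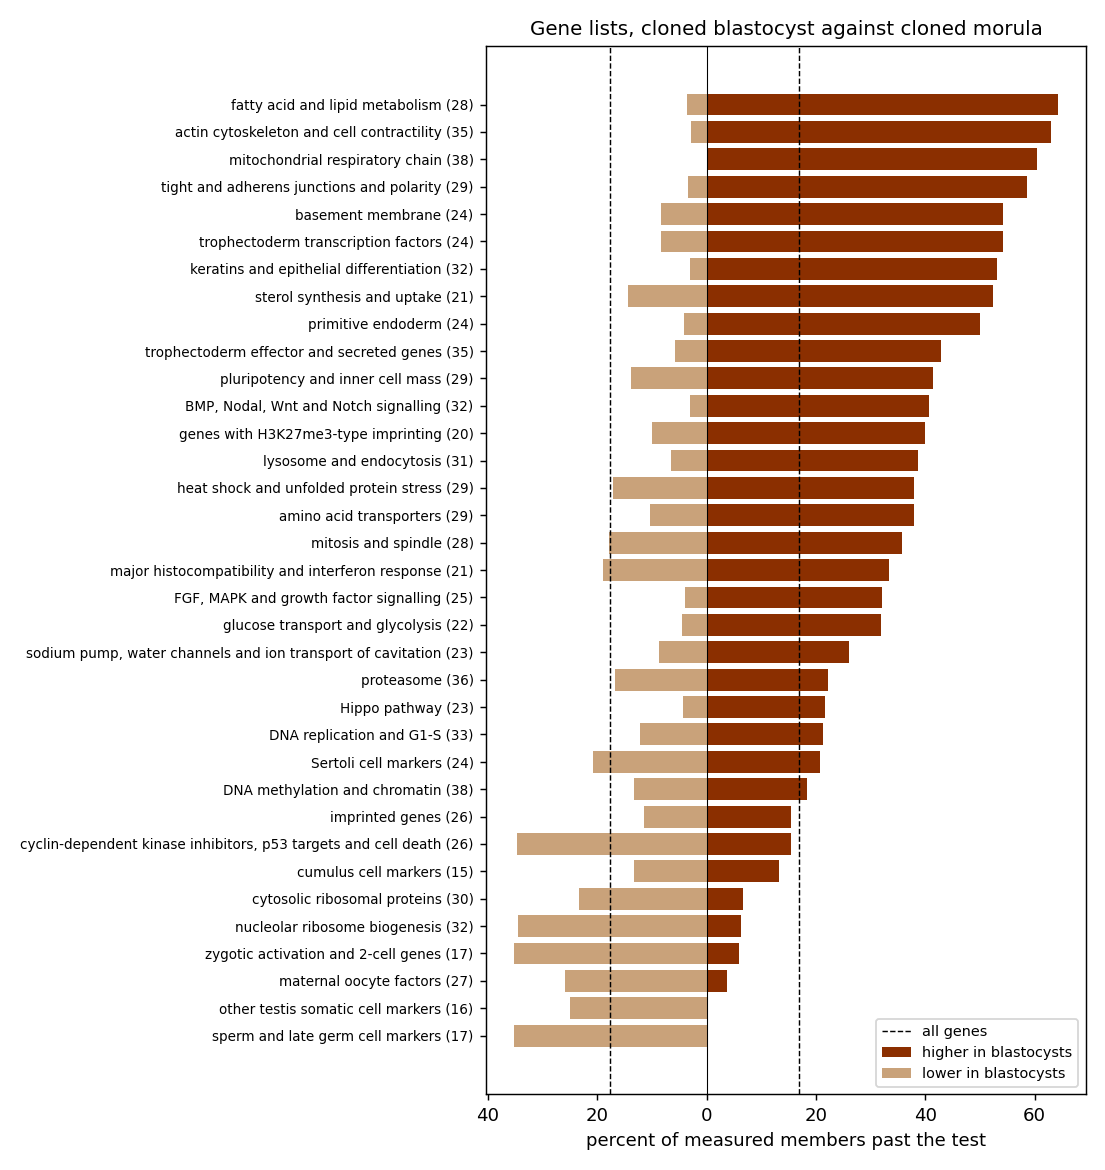
Percent of the measured members of 35 gene lists past the test in cloned blastocysts against cloned morulae, higher to the right and lower to the left, with the number measured in brackets. Dashed lines mark all genes, 16.9% higher and 17.6% lower. Lists of lipid metabolism, actin, respiration and epithelium have the longest bars to the right, and those of maternal, 2-cell and nucleolar genes lie mostly to the left.

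Inner cell mass genes were mixed. Of 29 members of pluripotency and the inner cell mass 12 were higher and 4 lower (median 0.69). Sox2 (chromosome 3, 34649995 to 34652461) stood at -1.62, -1.63, -1.66, 0.47 and -0.84 in morulae and at 5.39, 3.93, 4.69, 3.91 and 3.93 in blastocysts, a rise of 5.43 ± 0.39 (adjusted p = 3.39e-11). Dppa5a rose by 2.11 ± 0.26, Gdf3, a ligand related to Nodal, by 1.64 ± 0.28 and the de novo methyltransferase gene Dnmt3b by 2.80 ± 0.36. Pou5f1, at 0.51, 1.22, 0.33, 1.29 and 0.87 and then 0.82, 0.52, 0.39, 0.47 and 0.22, overlapped and did not pass (-0.36 ± 0.34, adjusted p = 0.451). Nanog stood between 3.86 and 4.85 and then between 3.35 and 4.15 and did not pass either (-0.57 ± 0.47, adjusted p = 0.377), but passed after quantile normalization (-1.76, adjusted p = 0.0373) and in the 10 arrays alone (adjusted p = 0.0445). Klf2 (0.99 ± 0.42, adjusted p = 0.0671), Klf4 (0.10 ± 0.37) and Dnmt3l (0.65 ± 0.44) did not pass. Dppa3, a maternal and germ line gene, fell by 1.09 ± 0.18. After quantile normalization 7 of the 29 were higher and 4 lower, with the hybridisation controls as a covariate 3 and 3, and Gdf3 did not pass in either (0.24 and 0.98).

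Primitive endoderm genes included large rises. Of 24 measured 12 were higher and 1 lower (median 0.73). Sox17, a late marker (chromosome 1, 4490928 to 4497426), was between -0.03 and 0.01 in morulae and at 4.24, 9.11, 9.73, 8.65 and 9.99 in blastocysts, a rise of 8.36 ± 0.60 with blastocyst 1 far below the other 4. In other members the order of blastocysts differed: blastocyst 1 was the highest in Gata6 (1.31) and second highest in Apoa1 (7.70). It was lowest in Gata4, at -2.22 against 0.06 or more in the others and between -2.08 and -1.90 in morulae, and the rise of Gata4 by 2.03 ± 0.64 stood at -0.08 with its other probe set. It was also lowest in Pdgfra (4.18 against 5.70 or more, a rise of 5.48 ± 1.01) and in the laminin gene Lama1 (2.07 against 5.33 or more, a rise of 5.40 ± 0.62). Hnf4a rose by 2.21 ± 0.12, the apolipoprotein gene Apoa1 by 5.44 ± 0.55 and the matrix protein gene Sparc by 5.52 ± 0.49. Gata6, the early marker, lay between 0.14 and 1.52 and then between 1.00 and 1.31 and did not pass (0.26 ± 0.61, adjusted p = 0.782). With the hybridisation controls as a covariate 6 of 24 were higher, and Gata4 (1.12, adjusted p = 0.595) and Pdgfra (4.84, adjusted p = 0.0735) did not pass. After quantile normalization 10 were higher and 2 lower, with a median of 0.11, and Hnf4a did not pass with its other probe set (0.25, adjusted p = 0.0579).

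The basement membrane, the matrix sheet laid down under epithelia, had 13 of 24 genes higher and 2 lower (median 1.07). Laminin chains Lama1 and Lamc1 (4.66 ± 0.47) and the laminin receptor gene Dag1 (3.22 ± 0.51) rose. The type IV collagen genes did not pass, at -0.97 ± 0.67 for Col4a1 (adjusted p = 0.278) and -1.03 ± 0.53 for Col4a2 (adjusted p = 0.137), but both passed as lower after quantile normalization (-2.06 and -2.16, adjusted p = 0.0438 and 0.0141). Lamb1 did not pass (0.83 ± 0.55). Nid1 (-1.38 ± 0.38) and the perlecan gene Hspg2 (-1.19 ± 0.33) fell, but with the hybridisation controls as a covariate neither passed (adjusted p = 0.124 and 0.876), nor with the other probe set (adjusted p = 0.73 and 0.4). Cloned morulae lay at 2.87 or more for Col4a1 and 1.43 or more for Nid1, and blastocysts at 3.26 or less and 1.16 or less, with overlap for Col4a1.

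Among signalling genes, 5 of 23 Hippo pathway genes were higher and 1 lower (median 0.14, and -0.21 after quantile normalization). These are 21.7% and 4.35%, against 16.9% and 17.6% of all genes. The DNA-binding partner gene Tead2 rose by 3.10 ± 0.28, the upstream regulator gene Wwc1 by 2.81 ± 0.32 and Yap1 by 1.27 ± 0.18. Of 25 FGF and MAPK genes 8 were higher and 1 lower (median 0.41). The ligand gene Fgf4 stood at -3.50, -3.80, 0.00, -3.10 and -2.83 and then at -1.02, -3.39, 0.67, -0.48 and 0.54 and did not pass (1.91 ± 1.05, adjusted p = 0.167). Its receptor gene Fgfr2 was at 1.37 or less in morulae and 2.98 or more in blastocysts, a rise of 2.24 ± 0.87 whose adjusted p of 0.048 lay between 0.0599 and 0.0914 with any 1 of the 10 embryos left out. The feedback inhibitors of this pathway, Dusp6 (3.66 ± 0.48), Spry1 (3.49 ± 0.39) and Dusp4 (3.41 ± 0.52), rose. Of 32 BMP, Nodal, Wnt and Notch genes 13 were higher and 1 lower (median 0.67). Dkk1, a secreted Wnt inhibitor gene, was between -0.07 and 0.06 in morulae and at -0.07, 0.51, 4.47, 2.62 and 3.79 in blastocysts (2.28 ± 0.50), again with blastocyst 1 at the level of the morulae. With the hybridisation controls as a covariate Fgfr2 (adjusted p = 0.155), Dusp4 (adjusted p = 0.107) and Dkk1 (adjusted p = 0.0761) did not pass.

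Genes of lipid metabolism, actin and the respiratory chain had the largest shares of rises among the 35 lists, but not in the other settings below. After quantile normalization 10 of 21 sterol genes and 11 of 24 basement membrane genes were higher, which are larger shares. With the hybridisation controls as a covariate 12 of 24 trophectoderm factors were higher, again a larger share. Of 28 genes of fatty acid and lipid metabolism 18 were higher and 1 lower (median 1.5), with 10 higher after quantile normalization and 7 with the hybridisation controls as a covariate. The citrate-cleaving enzyme gene Acly rose by 2.57 ± 0.39 and the desaturase gene Scd1 by 3.08 ± 0.47. Of 38 respiratory chain genes 23 were higher and 0 lower (median 0.84), among them the complex II gene Sdhd (3.66 ± 0.43), the complex I gene Ndufb5 (2.10 ± 0.30) and the ATP synthase gene Atp5a1 (1.40 ± 0.21). After quantile normalization 11 were higher and 2 lower, and with the controls as a covariate 10 and 0, where Atp5a1 did not pass (0.55, adjusted p = 0.266). Of 22 glycolytic genes 7 were higher and 1 lower (median 0.45), with the pyruvate dehydrogenase kinase gene Pdk1 at 5.55 ± 0.55, Tpi1 at 4.99 ± 0.77 and Pfkl at 2.88 ± 0.77, while Ldhb fell by 2.38 ± 0.55. Pfkl and Ldhb did not pass with the controls as a covariate (adjusted p = 0.0548 and 0.119).

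Of 35 genes of the actin cytoskeleton 22 were higher and 1 lower (median 1.47), and 13 were higher and 0 lower both after quantile normalization and with the controls as a covariate. Thymosin beta 4 (Tmsb4x), which binds actin monomers, rose by 5.89 ± 0.48, and the tropomyosin genes Tpm1 and Tpm3, whose products stabilise filaments, by 5.40 ± 0.31 and 4.55 ± 0.18. The myosin light chain gene Myl9 rose by 3.25 ± 0.30, from between -0.03 and 0.01 to 2.89, 5.18, 1.96, 2.93 and 3.26. The amino acid transporter gene Slc38a4 rose by 5.75 ± 0.69 and Slc7a5 fell by 2.44 ± 0.31, in a list with 11 of 29 higher and 3 lower.

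Fewer lists leaned towards the morula. Of 32 nucleolar genes of ribosome biogenesis 11 were lower and 2 higher (median -0.52). Polr1e, a subunit gene of RNA polymerase I, fell by 2.43 ± 0.21, from between -0.40 and 0.17 to between -3.17 and -1.93, Wdr43 by -1.78 ± 0.18 and Nip7 by -1.45 ± 0.23. After quantile normalization 16 were lower and 2 higher, and with the hybridisation controls as a covariate 10 and 0. Of 30 cytosolic ribosomal protein genes 7 were lower (23.3%, against 17.6% of all genes) and 2 higher (median -0.10), after centring arrays on their medians 5 and 3, and with the hybridisation controls as a covariate 1 and 3. Of 27 maternal oocyte factors 7 were lower and 1 higher (median -0.38), and 3 and 0 with the controls as a covariate, among them the zona pellucida gene Zp3 (-2.05 ± 0.27) and Nlrp14 (-2.80 ± 0.41). Of 17 zygotic activation and 2-cell genes 6 were lower and 1 higher (median -0.47).

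Cell cycle brakes and p53 targets went both ways. In the list of inhibitors, p53 targets and cell death genes 9 of 26 were lower and 4 higher (median -0.56). Cdkn1a, the gene of the p21 inhibitor (chromosome 17, 29090979 to 29100722), was at 2.88, 3.00, 2.24, 1.65 and 3.23 in morulae and at -0.47, -0.75, -0.23, 0.23 and -1.91 in blastocysts, a fall of -3.23 ± 0.47 (adjusted p = 7.13e-06). The stress genes Gadd45b (-3.44 ± 0.51) and Btg2 (-2.52 ± 0.51) and the cell death gene Pmaip1 (-3.39 ± 0.74) fell without overlap of the groups. Cdkn1b, the p27 gene, rose by 2.76 ± 0.31 and Perp by 2.37 ± 0.68. With the controls as a covariate 2 of 26 were lower and 3 higher, and Cdkn1a (-2.02, adjusted p = 0.0791), Pmaip1 (adjusted p = 0.243), Btg2 (adjusted p = 0.0551) and Perp (adjusted p = 0.183) did not pass. Perp did not pass after quantile normalization (adjusted p = 0.414).

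Proliferation lists were divided and their medians change sign with the settings. The shares of DNA replication genes (21.2% higher, 12.1% lower) and proteasome genes (22.2% and 16.7%) were near those of all genes (16.9% and 17.6%). Of 33 DNA replication and G1-S genes 7 were higher and 4 lower (median 0.18, -0.12 after quantile normalization and -0.23 with the controls as a covariate), with the replication factor gene Gins2 higher by 3.17 ± 0.42 and the cyclin genes Ccnd1 and Ccne2 lower at -3.72 ± 0.48 and -2.71 ± 0.52. Of 28 mitosis genes 10 were higher and 5 lower (median 0.67, and -0.22 with the controls as a covariate), with Racgap1 higher by 2.35 ± 0.44 and Cdc20 lower at -1.56 ± 0.22. Of 36 proteasome genes 8 were higher and 6 lower (median 0.21, and -0.37 after quantile normalization). In the list of heat shock and unfolded protein stress 11 of 29 were higher and 5 lower (median 0.59), with the oxidoreductase gene Pdia3 higher by 3.01 ± 0.40 and the chaperone genes Dnajb9 and Hyou1 lower at -2.26 ± 0.41 and -1.66 ± 0.26. Racgap1 did not pass with the controls as a covariate (1.42, adjusted p = 0.246) and Hyou1 did not (adjusted p = 0.0961), and with the other probe sets Ccnd1 (-0.72), Racgap1 (0.24), Hyou1 (-0.12), Nip7 (-0.77) and Btg2 (-1.45) did not pass.

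Imprinted genes gave 4 rises and 3 falls among 26 (median -0.02, and 0.04 after centring arrays on their medians). These are 15.4% and 11.5%, against 16.9% and 17.6% of all genes. The growth factor gene Igf2 rose by 2.57 ± 0.40, but stood at -0.09 with its other probe set, Sgce fell by 4.23 ± 0.71 and Impact by -3.58 ± 0.43, but Impact stood at 0.32 with its other probe set. Of 20 genes with imprinting of the H3K27me3 type, in which a maternal histone mark and not DNA methylation keeps an allele silent, 8 were higher and 2 lower (median 0.63, and 0.05 after quantile normalization). Slc38a4, Sfmbt2 (4.07 ± 0.65) and Runx1 (2.93 ± 0.31) rose. Xist, the RNA that coats an inactive X chromosome (chromosome X, 103460373 to 103483233), belongs to the same list and fell, by -2.83 ± 0.73 (adjusted p = 0.00404), from 4.65, 4.09, 4.35, 3.50 and 4.41 to 0.48, 1.33, 2.50, 1.96 and 0.56. In clones its mean rose from -1.85 at the 2-cell stage to 2.06 and 3.31 at the 4- and 8-cell stages, so the fall came after a maximum of 4.20 in morulae. Xist did not pass with the hybridisation controls as a covariate (-2.06, adjusted p = 0.349), with its other probe set (-1.17, adjusted p = 0.209) or with the mean of its probe sets (-1.11, adjusted p = 0.17). Of 617 X-linked genes 80 were higher (13%) and 135 lower (21.9%), with a median of -0.09. Over all genes the shares were 16.9% and 17.6% and the median -0.07. Sfmbt2 did not pass with the controls as a covariate (adjusted p = 0.0657), and Sgce did not with its other probe set (adjusted p = 0.226).

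Sertoli cell genes showed no common direction. Of 24 members 5 were higher and 5 lower (20.8% each, median -0.08), near the 16.9% and 17.6% of all genes. Sox9, which drives Sertoli fate, was at 3.11, 4.09, -0.02, 0.02 and 2.96 in morulae and between -0.10 and -0.03 in all 5 blastocysts, a fall of -2.10 ± 0.51 (adjusted p = 0.00252). Morulae 3 and 4 were thus near the level of blastocysts, and the other 3 stood well above it. Clu fell by 2.39 ± 0.76, while Aard rose by 5.21 ± 0.55 and the intermediate filament gene Vim, found in many cells, by 3.21 ± 0.55. The germ cell helicase gene Ddx4 fell by 2.11 ± 0.47. Sox9 did not pass in the 10 arrays alone (adjusted p = 0.0519), and Sox9, Clu and Ddx4 did not pass with the hybridisation controls as a covariate (adjusted p = 0.261, 0.675 and 0.263).

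The IVF embryos, which share no array with the clones, give the same step after fertilisation. In a fit of 21 oocyte and IVF arrays 2289 genes were higher (12.6%) and 1833 lower (10.1%), of which 2063 (11.3%) and 807 (4.44%) by at least 2-fold. Of the 2662 rises in clones 1553 (58.3%) were also called higher in IVF embryos and 8 lower, and of the 2063 rises in IVF embryos 1592 (77.2%) were called higher in clones and 3 lower. Of the 872 falls in clones 452 (51.8%) were called lower in IVF embryos and 3 higher. Across genes, which are not independent, the differences correlated with r = 0.779 over 18194 genes. Array controls moved with stage in IVF embryos as in clones. The mean of the hybridisation controls was 0.129 in IVF morulae and -0.919 in IVF blastocysts, and the 3′ minus 5′ signal of Actb was -0.708 and -2.42. The part of these controls in the shared calls was not tested. The difference of the transitions was tested as an interaction over all 51 arrays. It was larger in clones, meaning more positive, for 179 genes (0.984%) and smaller for 116 (0.638%). Of the 179, 132 were called higher in clones, 7 lower and 40 neither. Of the 116, 32 were called higher in clones, 22 lower and 62 neither. The difference itself is counted here, with its sign. By at least 2-fold it was larger for 171 (0.94%) and smaller for 106 (0.583%). In 118 of the 295 genes the group means of clones and IVF embryos lay farther apart at the morula and in 177 at the blastocyst.

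**Figure D3:**
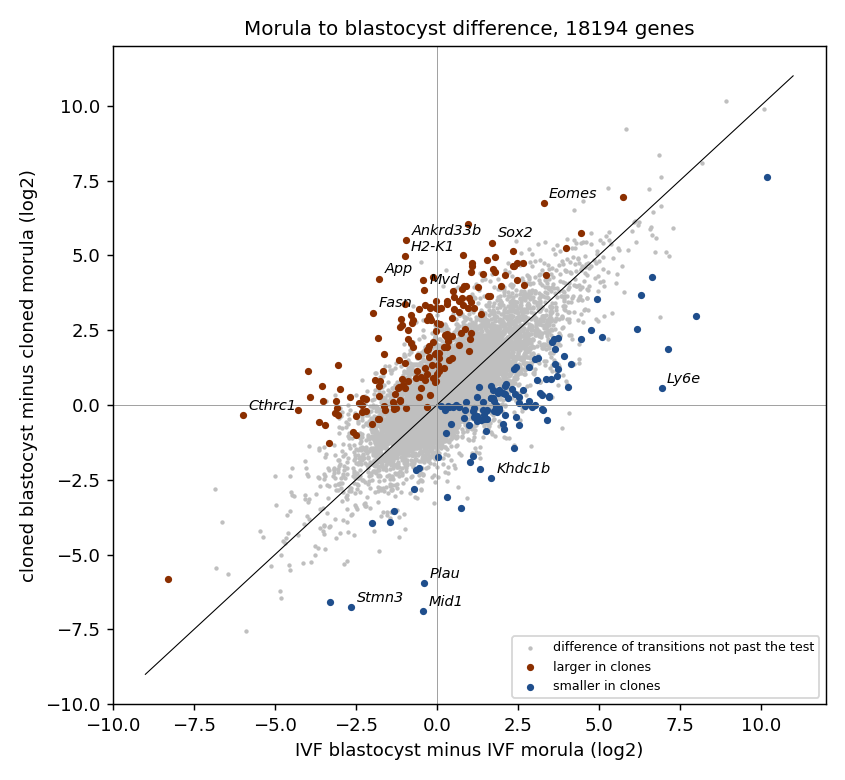
Blastocyst minus morula difference (log2) in clones (vertical axis) and IVF embryos (horizontal axis) for 18194 genes, 1 dot each, with the line of equality. Coloured dots mark the 179 genes with a larger and the 116 with a smaller difference in clones. Most genes lie along the line, and named genes such as Ly6e and Mid1 lie far off it.

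Several of the largest interactions came from morulae that differed. H2-K1, a class I histocompatibility gene (chromosome 17, 33996012 to 34000619), stood at 0.00, 0.11, 0.00, 2.16 and 0.52 in cloned morulae and at 6.34, 5.55, 5.55, 4.94 and 5.25 in cloned blastocysts, while IVF morulae already lay between 5.80 and 6.10 and IVF blastocysts between 4.70 and 5.46. The clone rise of 4.97 ± 0.27 exceeded the IVF difference of -0.98 by 5.95 ± 0.73 (adjusted p = 5.81e-07). Class I genes are close copies of one another, so the copy measured is uncertain. H2-D1, another of them, rose by 4.52 ± 0.63. Ly6e, a surface protein gene (chromosome 15, 74955025 to 74959904), showed the opposite pattern, with IVF morulae between -4.10 and -3.85, IVF blastocysts between 2.68 and 3.35, and clones between 2.60 and 4.20 at both stages (difference of transitions -6.37 ± 1.04, adjusted p = 0.00012). Sox2 was another such gene. IVF morulae stood at 2.39, 5.55 and 4.29, all above the 5 cloned morulae, and IVF blastocysts between 5.69 and 5.86, so the clone rise was larger by 3.72 ± 0.81 (adjusted p = 0.00596, and 0.0544 without the IVF morula of replicate 2).

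Eomes (larger by 3.45 ± 0.66) and the laminin gene Lamc1 (3.57 ± 0.72) differed at both stages. Means of cloned and IVF morulae were -0.10 and 2.00 for Eomes and 0.02 and 2.45 for Lamc1. Those of blastocysts were 6.65 and 5.30, and 4.68 and 3.53. IVF morulae stood at 1.26, 4.65 and 0.10 for Eomes, the last within the range of cloned morulae. The form of H2-K1 and Sox2 was found for X-linked Rlim, the ubiquitin ligase gene that acts on Xist expression (larger by 4.59 ± 0.87). Rlim stood between -6.95 and -2.81 in cloned morulae, between -1.29 and -0.15 in cloned blastocysts and between 0.16 and 1.62 in the 6 IVF embryos. Plau, the gene of urokinase (chromosome 14, 20836662 to 20843388), was at 6.47, 7.90, 6.83, 5.38 and 2.71 in cloned morulae and at 0.64 or less in cloned blastocysts and IVF embryos of both stages, so it fell in clones by -5.96 ± 0.50 and the transitions differed by -5.55 ± 0.66. Cthrc1 was high in IVF morulae, at 6.5, 4.99 and 6.98, and did not pass in clones (-0.34 ± 0.75). Mid1, an X-linked ubiquitin ligase gene, fell in clones by -6.89 ± 0.45, from between 4.42 and 7.64 to between -0.34 and -0.09, while the IVF embryos scattered from -0.29 to 6.40, lowest in IVF morula 2 (0.00) and IVF blastocyst 1 (-0.29), which lacked the Y-linked signal. The part of sex in the differences of X-linked Mid1 and Rlim was not tested. The difference for Mid1, -6.46 ± 1.26, stood at 0.04 with its other probe set, and the clone fall itself at -0.06 (adjusted p = 0.92). Lamc1 (0.48), Plau (-0.78) and Ly6e (-0.48) had no call for the difference with their other probe sets. In the 16 morula and blastocyst arrays alone Sox2 (adjusted p = 0.0648), Eomes (0.158), Lamc1 (0.0691) and Mid1 (0.163) had no call either.

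App and Stmn3 differed mainly in blastocysts. The amyloid precursor gene App rose in clones by 4.23 ± 0.79, to between 5.09 and 6.74, against between -0.06 and 0.61 in IVF blastocysts, and the transitions differed by 6.0 ± 1.35 (adjusted p = 0.00801, and 0.0842 without the IVF morula of replicate 3). Ankrd33b rose by 5.51 ± 0.90 in clones and stood at -0.94 in IVF embryos, a difference of 6.45 ± 1.29, with group means of -3.24 and 0.65 in cloned and IVF morulae and of 2.27 and -0.29 in blastocysts. Stmn3 fell in both, to between -3.49 and -2.17 in IVF blastocysts and far lower in clones (difference -4.12 ± 0.61). Glipr1 rose by 6.05 ± 0.31 in clones (difference 5.11), but its other probe set stood at -1.46 (adjusted p = 8.39e-05). Khdc1b changed in clones by -2.44 ± 0.31 and rose in IVF embryos by 1.67, and the meiotic recombinase gene Dmc1 fell by 3.46 ± 0.35 against 0.73. Smaller rises in clones than in IVF embryos were seen in Ndrg1 (1.86 ± 0.65 against 7.15) and Efemp1 (2.99 ± 0.67 against 8.00). These genes differed mainly in morulae, which were higher in clones. Means of cloned and IVF morulae were 2.12 and -2.15 for Ndrg1 and 4.87 and 0.10 for Efemp1. Those of blastocysts were 3.98 and 5.00, and 7.86 and 8.09. The clone rise of Ndrg1 did not pass in 6 of the 10 fits that left out 1 clone (highest adjusted p = 0.0785, without cloned morula 4) or with the hybridisation controls as a covariate (adjusted p = 0.592), and neither Ndrg1 (0.64) nor Efemp1 (1.26) passed after quantile normalization. The tubulin gene Tubb6 did not pass in clones (1.12 ± 0.73) and fell in IVF embryos by -3.97, but its difference of 5.09 stood at -0.30 with its other probe set, and that of Tpm3 (2.81) at -0.13. The differences of Glipr1 (0.27) and Dmc1 (-1.16) had no call with the other probe sets, and neither did the clone fall of Dmc1 (-0.48, adjusted p = 0.169). In the 16 arrays alone App (adjusted p = 0.126), Glipr1 (0.0873), Tubb6 (0.0647) and Efemp1 (0.136) had no call for the difference, and App had none after quantile normalization (5.26, adjusted p = 0.117).

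Among the 35 lists that of sterol synthesis held the most genes with a larger transition in clones. The pathway turns acetyl groups into cholesterol through mevalonate, and its genes are known to be switched on together by the factor SREBP2, encoded by Srebf2, acting with the CCAAT-binding factor NF-Y. Of 21 measured genes of sterol synthesis and uptake 11 were higher in cloned blastocysts and 3 lower (median 1.24), whereas in IVF embryos 3 were higher and 1 lower (median -0.27). The difference of the transitions was larger in clones for 7 of the 21, against 0.984% of all genes. They were Mvk, Mvd, Hmgcs1, Sqle, Cyp51, Idi1 and Fdft1, of which Sqle, Cyp51, Idi1 and Fdft1 were named after their values had been seen. Lists and members were chosen with earlier results of these data known. The count of 7 and the rank among the 35 lists are therefore a description. In 14 of the 16 list members with a RefSeq promoter window (87.5%) the letters CCAAT or their reverse complement ATTGG were found, against 38.2% of 14369 genes. The sterol element TCACNCCAC, on either strand, was found in 1 of the 16 and in 1.18% of all. These motifs were chosen after the values had been seen. The windows run from 250 bases before the annotated start to 50 after it (GRCm38.p6). Those of 4 of the 7 genes are shown 5′ to 3′, and all 4 carry CCAAT or ATTGG. The window of Cyp51, not shown, carries CCAAT as well, and Sqle and Fdft1 have no window.
Hmgcs1: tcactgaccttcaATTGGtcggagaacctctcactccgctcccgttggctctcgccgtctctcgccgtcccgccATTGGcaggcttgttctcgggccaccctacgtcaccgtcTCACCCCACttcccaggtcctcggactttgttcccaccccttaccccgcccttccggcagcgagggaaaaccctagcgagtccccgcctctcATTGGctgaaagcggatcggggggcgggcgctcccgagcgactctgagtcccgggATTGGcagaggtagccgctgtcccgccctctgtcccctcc
Mvd: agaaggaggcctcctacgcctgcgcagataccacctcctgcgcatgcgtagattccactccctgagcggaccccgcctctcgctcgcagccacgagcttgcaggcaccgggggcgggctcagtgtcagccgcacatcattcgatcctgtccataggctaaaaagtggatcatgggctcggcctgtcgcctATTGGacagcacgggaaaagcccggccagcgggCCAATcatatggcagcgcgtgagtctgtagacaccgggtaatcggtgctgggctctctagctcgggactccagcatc
Mvk: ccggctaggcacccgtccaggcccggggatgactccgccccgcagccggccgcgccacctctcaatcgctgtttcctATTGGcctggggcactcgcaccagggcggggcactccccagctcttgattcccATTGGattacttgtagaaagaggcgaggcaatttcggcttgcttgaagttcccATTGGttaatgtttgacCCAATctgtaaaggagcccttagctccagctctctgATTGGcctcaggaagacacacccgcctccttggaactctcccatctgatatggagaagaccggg
Idi1: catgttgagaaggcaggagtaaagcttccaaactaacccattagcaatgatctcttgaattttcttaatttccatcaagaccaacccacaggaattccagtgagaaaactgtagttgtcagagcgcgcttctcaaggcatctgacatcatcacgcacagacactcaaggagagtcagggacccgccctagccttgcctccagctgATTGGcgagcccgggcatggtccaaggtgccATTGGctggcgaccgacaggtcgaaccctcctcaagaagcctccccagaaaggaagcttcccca
Capitals mark CCAAT or ATTGG and, in Hmgcs1, also the sterol element. The windows lie at chr13:119690101-119690400 (plus strand), chr8:122443373-122443672 (minus), chr5:114444019-114444318 (plus) and chr13:8885356-8885655 (plus). A match describes letters and is not a measured binding site.

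Mvd, the gene of mevalonate diphosphate decarboxylase, stood at 0.59, 0.51, 0.65, 0.59 and 0.02 in cloned morulae and at 4.80, 4.52, 4.06, 4.12 and 4.15 in cloned blastocysts, a rise of 3.86 ± 0.15 (adjusted p = 2.3e-16). IVF embryos stood at 0.63, 1.65 and 0.29 and then at 1.34, 0.06 and -0.04, so the transitions differed by 4.26 ± 0.33 (adjusted p = 4.24e-12). All 5 cloned blastocysts lay above every other embryo of the 4 groups. Hmgcs1, which encodes the enzyme that makes HMG-CoA, went from -1.08, -1.35, -3.00, -1.52 and -2.76 to between 1.36 and 1.65 in clones (3.49 ± 0.46), while IVF embryos lay between -2.13 and -0.33 at both stages (difference 3.17 ± 0.67, adjusted p = 0.00376). Mevalonate kinase (Mvk) rose in both, by 4.63 ± 0.17 in clones and by 2.34 in IVF embryos, with a larger rise in clones (difference 2.29 ± 0.47, but 0.51 with its other probe set, adjusted p = 0.205).

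Later enzymes of the pathway were higher in cloned blastocysts too. The squalene epoxidase gene Sqle rose by 3.27 ± 0.43 in clones and stood at -0.22 in IVF embryos (difference 3.48 ± 0.60). For Cyp51 the clone rise was 2.61 ± 0.55 and the difference 3.76 (adjusted p = 0.0263), for Idi1 1.5 ± 0.39 and 2.68 (adjusted p = 0.0204), and for the squalene synthase gene Fdft1 0.92 ± 0.23 and 1.55 (adjusted p = 0.0261). Leaving out 1 of the 16 embryos ended the call of the difference in 5, 3 and 5 cases for Cyp51, Idi1 and Fdft1. The highest adjusted p was 0.0944 for Cyp51 (3.41, without IVF morula 1), 0.0703 for Idi1 (2.49, without IVF morula 3) and 0.184 for Fdft1 (1.13, without IVF blastocyst 3). Fdft1 also had no call for the difference in the 16 arrays alone (adjusted p = 0.187). Srebf2 rose in both, by 3.29 ± 0.38 and 2.20, and Nsdhl by 4.43 ± 0.45 in clones, with no call for a difference. Srebf1, which encodes the factor of the fatty acid branch, was lower in cloned blastocysts at -1.41 ± 0.37. The sterol-sensing brake gene Insig1 was lower at -1.13 ± 0.37, but stood at 0.55 with the hybridisation controls as a covariate, and it did not pass in 3 of the 10 fits that left out 1 clone (highest adjusted p = 0.0608, -0.92 without cloned morula 3). Fatty acid synthase (Fasn) rose in clones by 3.09 ± 0.74, from -3.38, -4.94, 1.18, -0.79 and -1.51 to between 0.78 and 1.51, and fell in IVF embryos by -1.98, a difference of 5.07 ± 1.02 (adjusted p = 0.00233, and 0.0957 in the 16 arrays alone). The values of cloned morula 3 overlapped those of the blastocysts. In clones 10 of 21 were higher after quantile normalization and 8 with the hybridisation controls as a covariate, where Idi1 (adjusted p = 0.285), Fdft1 (adjusted p = 0.173) and Srebf1 (adjusted p = 0.272) did not pass. After quantile normalization Idi1 did not pass in clones (adjusted p = 0.268) and Cyp51 did not for the difference (adjusted p = 0.0543).

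**Figure D4:**
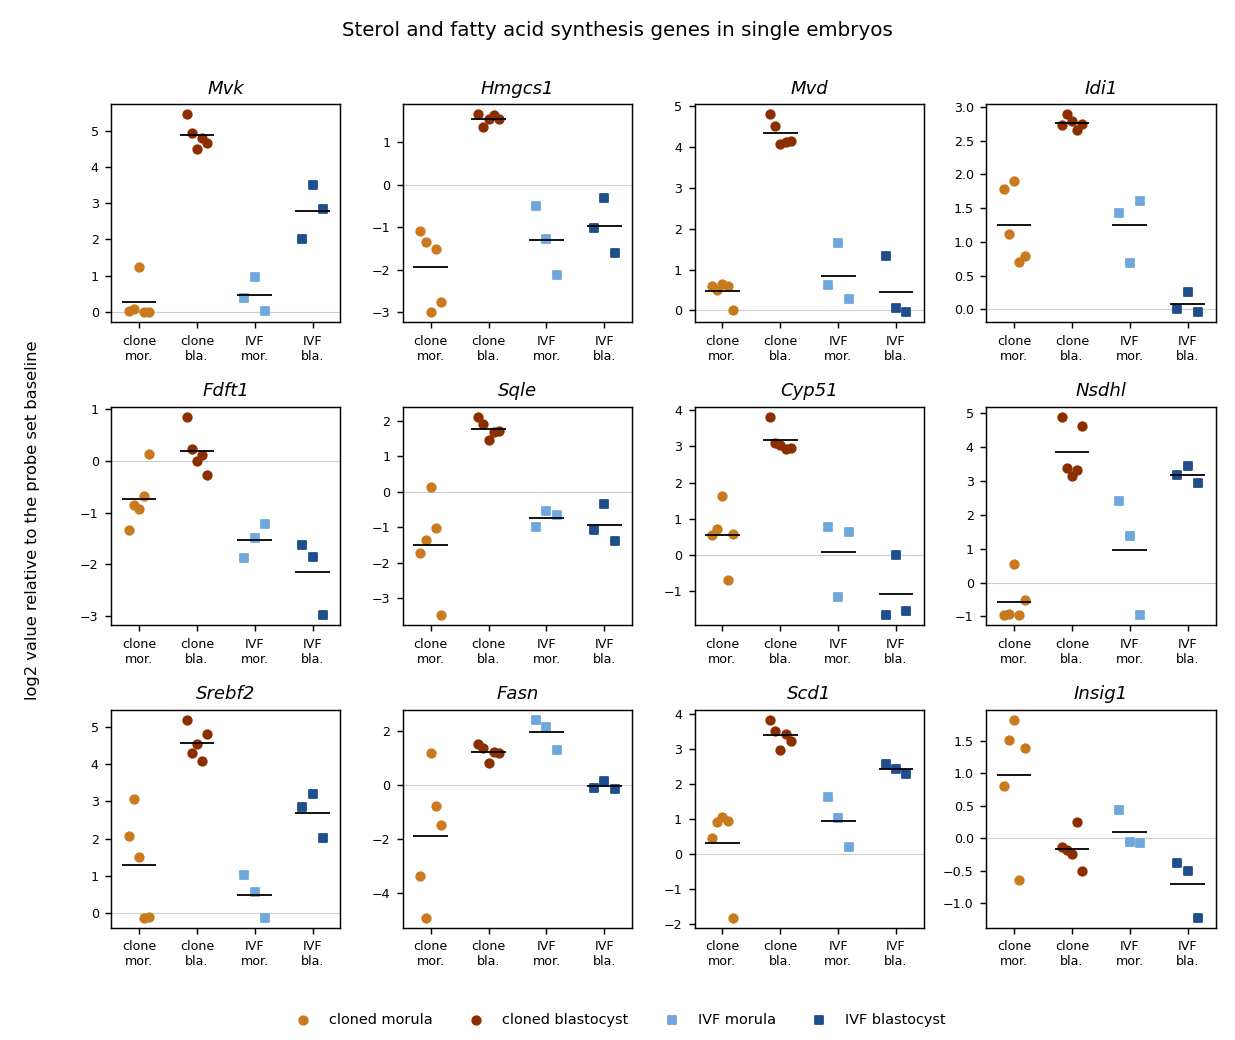
Log2 values of 12 sterol and fatty acid genes in single embryos, relative to the baseline of each probe set (vertical axis), for cloned (circles, 5 each) and IVF (squares, 3 each) morulae and blastocysts, with lines at group means. In Mvd, Hmgcs1, Sqle, Cyp51 and Idi1 the 5 cloned blastocysts stand above all other embryos.

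Promoter windows of the rises and falls were also searched for letters of trophectoderm and general factors, on both strands. The TEAD letters CATTCC were in 11.6% of windows of genes higher by at least 2-fold, 13.2% of those lower and 13% of all genes. For the GATA letters AGATAA the shares were 5.42%, 5.62% and 8.11%, for the octamer ATGCAAAT 1.57%, 1.83% and 1.49%, and for the TATA letters TATAAA 5.6%, 8.29% and 9.85%. The AP-2 palindrome GCCNNNGGC was in 27.3%, 26.1% and 22.4%. A match is a description of letters only.

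The 10 embryos were placed along the IVF transition by their mean over the 2063 genes that rose and the 807 that fell in IVF embryos. On the rises cloned morulae 1 to 5 stood at 0.00, 0.18, 0.35, 0.19 and -0.21 and blastocysts between 2.00 and 2.14, against 2.22 to 2.28 in IVF blastocysts, which helped choose the genes. On the falls cloned morulae lay between 0.03 and 0.46, and the 3 IVF morulae at 0.69 to 0.84, which had helped choose the genes for being high there, and cloned blastocysts between -1.25 and -0.93. Cloned morula 3 stood nearest the blastocysts on both. Cloned blastocysts resembled one another more than morulae did, with correlations across genes of 0.911 to 0.937 between blastocysts and 0.57 to 0.781 between morulae, with morula 3 in each of the 3 lowest. The hybridisation controls moved with stage as this spread did, and their part in it was not tested.

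**Figure D5:**
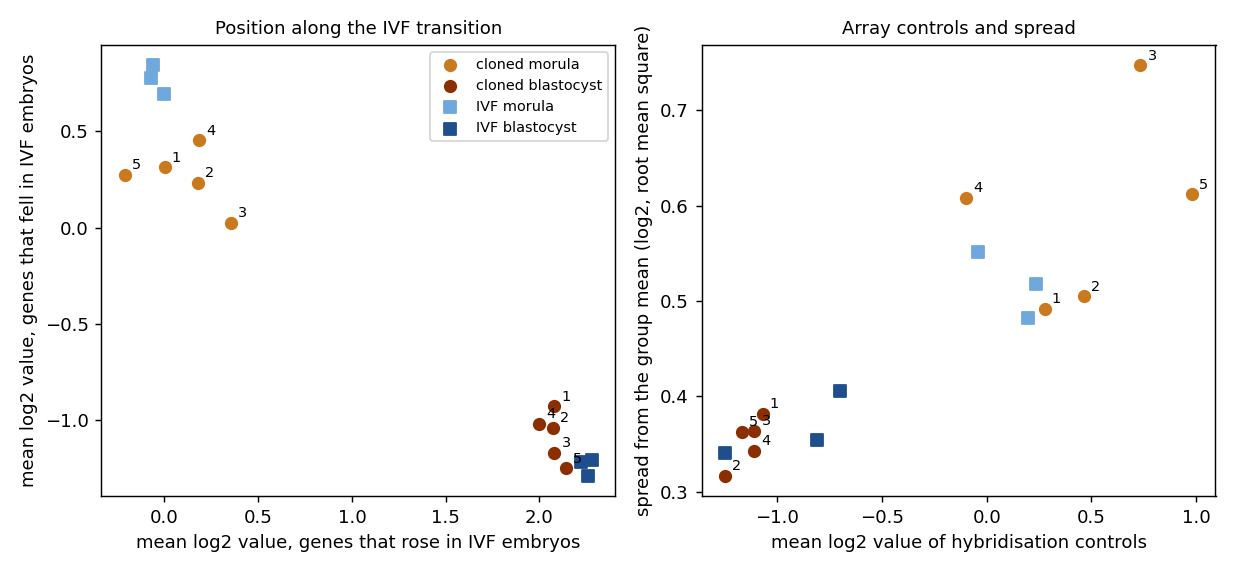
Left, mean log2 value over genes that fell (vertical axis) and rose (horizontal axis) in IVF embryos, 1 point per embryo, with replicate numbers of the clones. Right, spread of each embryo from its group mean over all genes (vertical axis, log2) against the mean log2 value of the hybridisation controls (horizontal axis). Blastocysts lie at low controls and a spread of 0.317 to 0.406, and cloned morula 3 has the largest spread, 0.747.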

How the data were processed

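Single embryos were measured on 1-colour arrays of 45101 probe sets. The deposited log2 values were made by the authors with RMA, per the submitters' processing notes, and further steps are not given in the sources used here. In 94.3% of probe sets exactly 1 array is at 0 and 24 to 26 of the 51 are below it, so values are centred by probe set. The log base of 2 was inferred, since 1 probe set spans 13.8 units, more than the 11.1 a 16-bit scanner spans in natural logs. Depth has no counterpart on arrays, and precision is limited by 5 and 3 embryos a group. Nothing says that embryos came from separate matings, so p-values measure the spread between these samples within a stage, shared over all stages of a fit. The SE can thus differ from the spread of the compared embryos. For Sox17 the SD was 2.36 in cloned blastocysts and 0.01 in cloned morulae, and the SE was 0.60. For Atp1b1 the SDs were 0.14 and 0.72 and the SE 1.10.

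Of 34958 probe sets with 1 symbol, the one with the largest SD over all 51 arrays stood for each gene. Clones were fitted over all 30 clone arrays by stage, IVF embryos over 21 arrays with oocytes, and the difference of transitions over 51, with limma 3.58.1 in R 4.3.3 (lmFit, eBayes), which was tested on simulated data. Alternatives were the compared arrays alone, median centring, quantile normalization, hybridisation controls as a covariate, other probe sets, an SD filter, robust and weighted fits, a replicate block, and leaving out each embryo. The block and the controls on the 10 arrays were added after seeing the data. Deviations of clones with the same number correlated between -0.0506 and 0.071, so numbers were not taken as pairs. The genes named are the 15 largest rises and 15 largest falls past the test without overlap, the 8 largest and 8 smallest differences of transitions, up to 6 called members a list in each direction by smallest p, and a set of known lineage genes (Y-linked genes and locus numbers left out of the largest). A few others, said so in the text, were added after their values were seen. Members and lists were chosen with earlier results of these data known. Positions and promoters are from RefSeq (GRCm38.p6).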

Additional observations from a re-analysis of the deposited data

Results flagged for a closer look

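Among 326 groups of 5 cloned embryos, 1 for each named gene and stage, 45 held an embryo whose gap to the nearest other was over 0.71 of the group's range. Chance gives about 1 in 20 for values of a normal distribution, which genes flat at their baseline need not follow. The rule is relative to the range, so it also flags very small gaps. Anxa6 in morula 4 stood at -0.0525 against -0.0111 to -0.0032 in the others, and Krt7 in morula 5 at 0.0548 against -0.0206 to -0.0096. Morulae gave 29 of the 45 and blastocysts 16.

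Cloned morula 1 stood apart from the other 4 in Slc15a2 (2.98), Glipr1 (2.39), Dnmt3l (0.91) and Runx1 (1.77). Cloned morula 2 stood apart from the other 4 in Cthrc1 (1.33), Elf5 (0.42), Gjb5 (0.50), Spry1 (-2.59), Igf2 (-0.48) and Yap1 (-2.42). Cloned morula 3 stood apart from the other 4 in Dsc2 (1.27), Klf4 (-1.59), Fgf4 (0.00), Atp1b1 (2.64), Mvk (1.23) and Wwc1 (-1.10). Cloned morula 4 stood apart from the other 4 in Lcp1 (1.19), Anxa6 (-0.05), H2-K1 (2.16), Aqp3 (3.02), Lama1 (0.48), Tead2 (1.95), Pdk1 (-2.84) and Hnf4a (0.36). Cloned morula 5 stood apart from the other 4 in Gata2 (0.98), Dnmt3b (-1.63), Mvd (0.02), Scd1 (-1.82) and Krt7 (0.05).

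Cloned blastocyst 1 stood apart from the other 4 in Sox17 (4.24), Fxyd4 (3.15) and Cyp51 (3.81). Cloned blastocyst 2 stood apart from the other 4 in Slc15a2 (9.13) and Krt7 (0.27). Cloned blastocyst 3 stood apart from the other 4 in Wnt7b (3.14) and Tpi1 (5.94). Cloned blastocyst 4 stood apart from the other 4 in Stmn3 (-8.51), Patj (3.37), Gjb5 (6.46), Nid1 (-0.54), Nlrp14 (-4.89) and Ddx4 (-0.80). Cloned blastocyst 5 stood apart from the other 4 in Gulp1 (7.84), Cux2 (-4.64) and Ly6e (2.67).

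The interaction test, limma over 51 arrays, found 36 named genes whose transition differed between clones and IVF embryos. Values are the clone difference minus the IVF difference on the log2 scale. This value counts as larger where it is more positive, also for a shallower fall in clones, as in Obox6 (-5.81 against -8.31). Among lipid synthesis genes it was larger in clones for Fasn (5.07), Mvd (4.26), Cyp51 (3.76), Sqle (3.48), Hmgcs1 (3.17), Idi1 (2.68), Mvk (2.29) and Fdft1 (1.55). Of the others it was larger for Ankrd33b (6.45), App (6.0), H2-K1 (5.95), Cthrc1 (5.66), Glipr1 (5.11), Tubb6 (5.09), Rlim (4.59), Vim (3.76), Sox2 (3.72), Lamc1 (3.57), Eomes (3.45), Myl9 (3.28), Tpm3 (2.81), Obox6 (2.50), Fxyd4 (2.26), Cldn3 (1.31) and Anxa6 (1.20). It was smaller, or a deeper fall, for Mid1 (-6.46), Ly6e (-6.37), Plau (-5.55), Ndrg1 (-5.29), Efemp1 (-5.01), Dmc1 (-4.19), Stmn3 (-4.12), Khdc1b (-4.11), Hsd17b14 (-3.31), Adh1 (-2.55) and Hnf4a (-1.41). The call for Adh1 was lost in 12 of the 16 fits that left out 1 embryo (highest adjusted p = 0.109), after quantile normalization (0.0688), with the hybridisation controls as a covariate (0.112) and in the 16 arrays alone (0.358). That for Anxa6 was lost in 14 of 16 (highest adjusted p = 0.145, limma), that for Cldn3 without IVF blastocyst 3 (0.0795) and that for Vim in 2 of 16 (highest 0.0549, without IVF morula 3). In the 16 arrays alone Hsd17b14 (adjusted p = 0.0606), Hnf4a (0.107), Obox6 (0.17), Fxyd4 (0.0874), Cldn3 (0.24) and Vim (0.214) had no call.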

How the results depend on the processing

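Counts are given as genes higher, lower, and higher and lower by at least 2-fold, against 3077, 3203, 2662 and 872. In the 10 arrays alone 6775 were lower. With arrays centred on their medians 1521 were lower, with the SD filter 1182, and after quantile normalization 2083 were lower, 1522 of them by at least 2-fold. With the hybridisation controls as a covariate 1202, 760 and 1158 were called, and 225, 160, 222 and 153 with it on the 10 arrays. Array weights gave 484 larger and 350 smaller differences of transitions, against 179 and 116. In the 16 arrays alone 178 and 172 were called, of which 84 and 45 were also called over all arrays. Leaving out 1 embryo gave 2668 to 3031 higher, 2437 to 3270 lower, 2328 to 2662 and 788 to 891 by at least 2-fold, and differences of 137 to 198 and 100 to 130.

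The replicate block gave 3104 higher, 3109 lower, 2682 and 872 by at least 2-fold, and differences for 184 and 112. It ended the call of Fgfr2 (adjusted p = 0.0516) and of the difference of Anxa6 (0.0592) among the named genes. On the 10 arrays alone the block gave 2939 higher and 3069 lower, against 3589 and 6775 there without it, and ended the clone calls of Bex1 (adjusted p = 0.0578), Fasn (0.0763), Efemp1 (0.0949), Sox9 (0.087), Dusp4 (0.0589), Fdft1 (0.109), Insig1 (0.119), Ldhb (0.0673), Vim (0.0713) and Dkk1 (0.0805).

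Signs turned after quantile normalization for Cdx2 (-0.19) and Gata3 (-0.077), with the controls as a covariate for Insig1 (0.55), and with the second probe set for Laptm5 (-0.10), Glipr1 (-1.46), Gata4 (-0.076), Igf2 (-0.086) and Impact (0.32), and for the differences of Mid1 (0.035), Tubb6 (-0.30) and Tpm3 (-0.13). The causes were not tested. Of 147 named genes called in clones 96 kept the call under the 22 settings counted and 144 under each single embryo left out. Of 36 called differences 11 kept the call under 27 settings and 27 under each single embryo left out. The 22 settings did not include the hybridisation controls as a covariate in cloned morulae and blastocysts alone. In that fit 193 of the 3077 rises and 83 of the 3203 falls over all genes kept their call. Genes with a single probe set could not be tested with a second probe set. The number of embryos limits precision.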
